A study of Homo sapiens with 6 samples.

Results

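A set of 45 genes that open replication origins, unwind DNA and copy it at the fork was examined in K562 cells with and without a truncating change in RUNX1. K562 is an established leukaemia line, of human origin, that keeps traits of the erythroid and megakaryocytic lineages. RUNX1, a DNA-binding transcription factor, directs the formation of blood cells. Of 6 RNA-seq libraries, 3 came from cells whose RUNX1 was wild type (WT) and 3 from cells carrying RUNX1 R320*, in which a stop codon cuts the protein short before its C terminus. Both genotypes grew in the same medium with no treatment named, and how the R320* cells were made, and whether they are 1 clone, is not given in the sources used here. The 45 genes were chosen by name for their role in replication; the rule uses no measured value, but the list was drawn up with earlier results of these data known. All 45 were found, among 28395 genes in a table of normalized read counts and 60131 in a table of RPKM (reads scaled to transcript length and library depth), and all 45 passed the filter on low values in both.

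A cell copies its genome once per division by separating the loading of the helicase from its firing. In G1 the origin recognition complex (ORC1 to ORC6), with CDC6 and CDT1, loads the ring-shaped MCM2-7 helicase onto DNA in an inactive form. After G1, geminin (GMNN) binds CDT1 so that no further loading follows. In S phase CDC45 and the GINS complex join MCM2-7 to form the active helicase, and MCM10 takes part in its firing. Polymerase alpha with primase lays down primers, polymerases delta and epsilon extend them on the PCNA clamp, which replication factor C (RFC) loads, and FEN1 and LIG1 trim and join the Okazaki fragments. RPA covers the exposed single strands, and chromatin assembly factor 1 (CHAF1A and CHAF1B) places histones on the new DNA. Many of these genes are transcribed as cells enter S phase, through E2F sites in their promoters, so their RNA is widely used as a mark of proliferation.

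The libraries held between 29058471 and 31306435 reads assigned to genes. RUNX1 RNA itself read 2969, 2922 and 2908 normalized counts in WT and 5209, 5026 and 5261 in R320*, which shows a difference in its amount and not the allele. All 8 erythroid and megakaryocytic markers listed for K562 were present, with a summed level of 115492 to 119068 normalized counts in WT and 143346 to 162216 in R320*. Of the 8, 7 were called higher in R320* in the counts by the limma test given below, which called 26.4% of all genes higher. GATA1 was lower, at a mean of 8964 normalized counts in WT and 6124 in R320*. In the RPKM table KLF1 was not called (limma log2 fold change 0.05, adjusted p = 0.624). HBG2 made up the largest part of the sum, at means of 47820 in WT and 60335 in R320*. Of 15 markers of stroma, epithelium, T cells, B cells and endothelium, 9 stayed under 30 normalized counts in every library. The summed level of those 15 was 4549 to 4594 in WT and 3493 to 3799 in R320*, most of it from COL1A2, and the part of these shifts in the results below was not tested. Over all genes tested, log2 values of libraries of the same genotype correlated at 0.988 to 0.989, and those of different genotypes at 0.943 to 0.946.

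The difference between genotypes was broad. Of 14299 genes tested in the count table, limma called 7685 (53.7%) at a Benjamini-Hochberg adjusted p below 0.05, with 26.4% higher in R320* and 27.4% lower. Of the 45 replication genes, 22 were called (48.9%), a share close to that of all genes, and they divided unevenly: 19 rose (42.2%) and 3 fell (6.67%). The 3 that fell were MCM8, PRIM1 and RFC5. With a filter of 50 or more normalized counts in 3 libraries, 59.7% of 12036 genes were called, and again 22 of the 45. The libraries of the genotypes did not overlap for 59.8% of all genes tested, with R320* above WT in 29.6% and below in 30.2%. Among the 45, R320* lay above WT without overlap in 22 and below in 6.

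The changes were small. The median log2 fold change (R320* minus WT, of normalized counts plus 1) was 0.10 over the 45 genes and 0.01 over all genes tested. The median size regardless of sign was 0.16 for the 45 and 0.27 for all. Beyond 1.5-fold lay 1 of the 45, RFC5, and 24.2% of all genes tested. In bulk RNA, a larger share of cells in S phase and more of these transcripts per cell cannot be told apart. The plot of all 45 fold changes shows the MCM2-7 block on the right, RFC5 and PRIM1 on the left and most polymerase, RFC and RPA genes near 0.

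**Figure D1:**
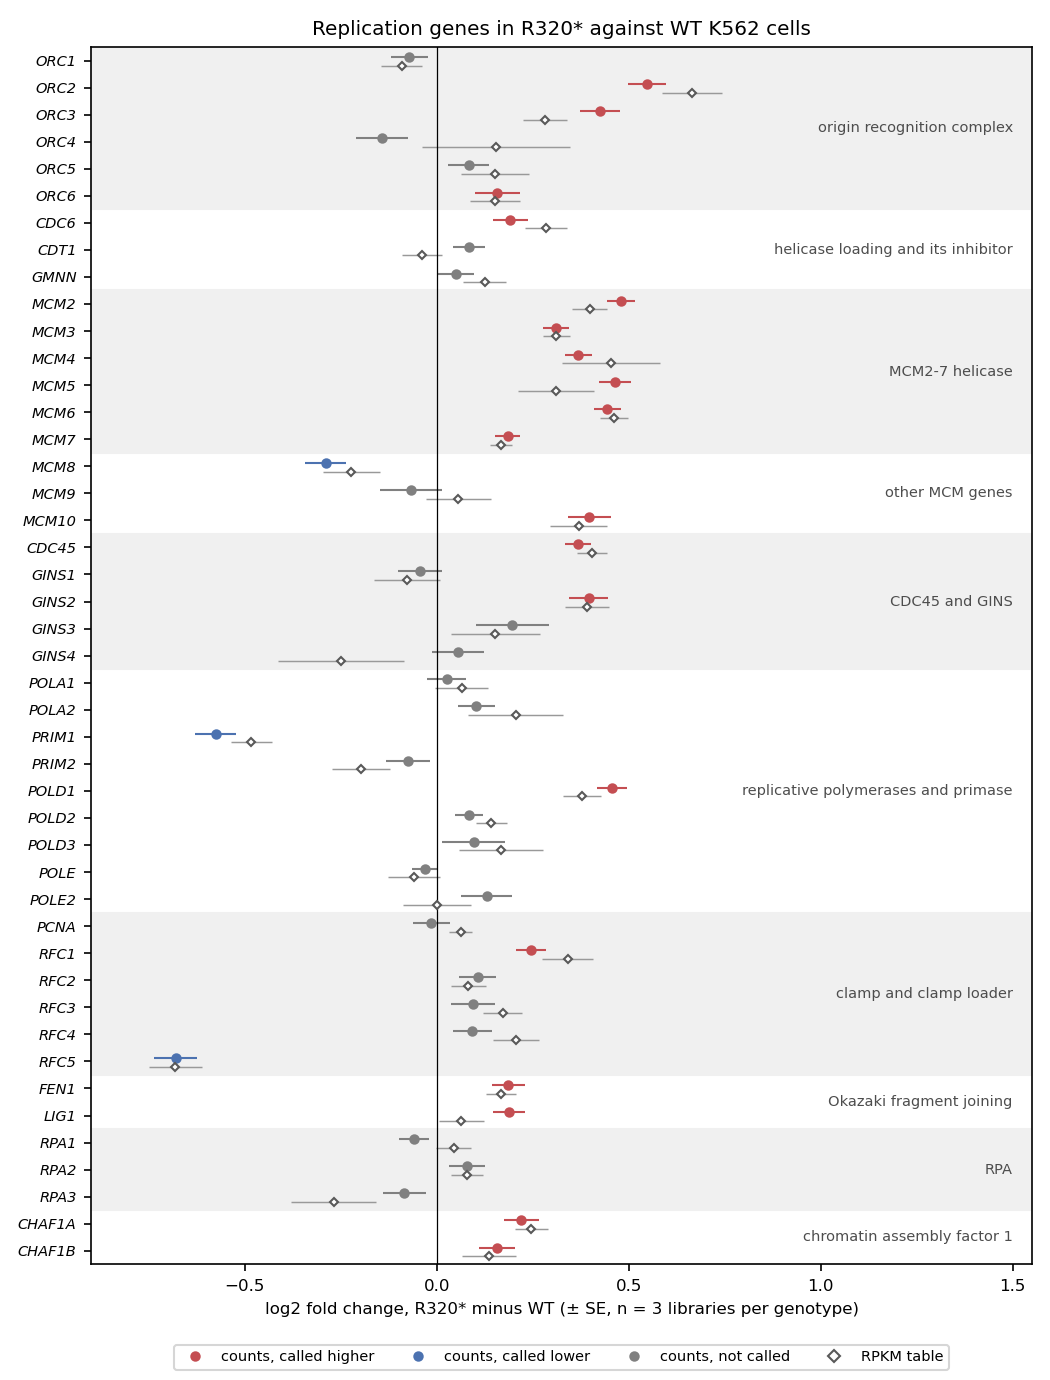
Log2 fold change of each of the 45 replication genes, R320* minus WT, with its standard error (3 libraries per genotype), grouped by role. Filled circles are the count table (red, called higher; blue, called lower; grey, not called) and open diamonds the RPKM table; the 6 MCM2-7 genes lie between 0.18 and 0.48 in the counts, while RFC5 and PRIM1 lie at -0.68 and -0.58.

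The promoters of these genes carry elements that are textbook features of replication genes, so those of some members that rose, some that were not called and 1 that fell are shown. RefSeq promoters (GRCh38.p14, 250 bases before to 50 after the start) were matched for 39 of the 45 genes. The E2F-type motif TTTNNCGC (either strand) was found in at least 1 promoter of 22 of the 39 genes (56.4%), against 12.5% of the genes tested that have a promoter in the table. CCAAT, searched the same way, was found for 24 of the 39 (61.5%), against 42.8%. The median GC content of the promoters was 64.5% for the 45 genes' promoters and 64.7% for those of the genes tested. Stretches of up to 200 bases before the start are printed 5′ to 3′ on the gene's strand, with matches to either motif in capitals (matches on the other strand read as the reverse complement, such as ATTGG for CCAAT). MCM6 (chr2:135876444-135876643, minus strand), RFC1 (chr4:39366363-39366562, minus strand), ORC6 (chr16:46689519-46689658, plus strand), MCM10 (chr10:13161358-13161557, plus strand) and CHAF1A (chr19:4402440-4402639, plus strand) rose:
MCM6: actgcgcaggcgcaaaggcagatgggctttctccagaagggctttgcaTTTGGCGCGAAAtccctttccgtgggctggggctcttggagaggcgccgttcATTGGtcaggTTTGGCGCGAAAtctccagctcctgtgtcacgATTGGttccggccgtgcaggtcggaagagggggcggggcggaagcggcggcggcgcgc
RFC1: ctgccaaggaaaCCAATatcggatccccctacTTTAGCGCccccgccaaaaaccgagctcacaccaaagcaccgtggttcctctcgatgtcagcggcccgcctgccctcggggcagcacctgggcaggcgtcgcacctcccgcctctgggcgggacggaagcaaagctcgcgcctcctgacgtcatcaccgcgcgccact
ORC6: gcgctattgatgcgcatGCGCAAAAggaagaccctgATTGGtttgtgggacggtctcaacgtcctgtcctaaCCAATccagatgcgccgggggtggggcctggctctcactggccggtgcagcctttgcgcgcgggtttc
MCM10: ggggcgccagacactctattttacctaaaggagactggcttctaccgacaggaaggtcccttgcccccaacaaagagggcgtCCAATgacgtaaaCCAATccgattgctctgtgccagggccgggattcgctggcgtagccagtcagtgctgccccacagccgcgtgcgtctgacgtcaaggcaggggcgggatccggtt
CHAF1A: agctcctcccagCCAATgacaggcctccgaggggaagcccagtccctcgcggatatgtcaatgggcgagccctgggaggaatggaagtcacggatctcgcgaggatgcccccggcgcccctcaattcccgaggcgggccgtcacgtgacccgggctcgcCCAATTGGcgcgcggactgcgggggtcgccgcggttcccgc

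MCM6 holds the run TTTGGCGCGAAA at 2 places, and at each the motif is matched on both strands by overlapping letters. MCM10 and CHAF1A rose with no TTTNNCGC in the promoter and hold CCAAT only. PCNA (chr20:5126623-5126782, minus strand), GMNN (chr6:24775253-24775412, plus strand) and POLE (chr12:132687343-132687542, minus strand) hold both motifs and were not called:
PCNA: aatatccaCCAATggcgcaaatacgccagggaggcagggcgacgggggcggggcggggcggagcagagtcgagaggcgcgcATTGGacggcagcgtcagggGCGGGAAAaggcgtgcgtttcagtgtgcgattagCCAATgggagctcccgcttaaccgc
GMNN: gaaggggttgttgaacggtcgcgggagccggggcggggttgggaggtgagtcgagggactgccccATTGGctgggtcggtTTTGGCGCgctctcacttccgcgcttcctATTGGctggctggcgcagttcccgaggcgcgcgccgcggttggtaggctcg
POLE: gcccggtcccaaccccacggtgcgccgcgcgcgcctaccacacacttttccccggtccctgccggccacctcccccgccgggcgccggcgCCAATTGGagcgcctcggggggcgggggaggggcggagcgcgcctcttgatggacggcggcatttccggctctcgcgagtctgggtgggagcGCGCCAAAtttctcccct

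RFC5 (chr12:118016503-118016702, plus strand), which fell, has its TTTNNCGC match just after the start and its CCAAT match further upstream, both outside the stretch shown:
RFC5: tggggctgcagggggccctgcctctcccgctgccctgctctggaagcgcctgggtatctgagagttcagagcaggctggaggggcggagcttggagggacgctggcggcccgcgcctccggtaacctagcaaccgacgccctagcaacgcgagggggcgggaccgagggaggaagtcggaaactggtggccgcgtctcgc
Every call occurred with and without the E2F-type match: of the 22 genes with one, 10 rose, 2 fell and 10 were not called, and of the 17 with a promoter and no match, 7 rose, 1 fell and 9 were not called. The median log2 fold change was 0.14 with a match and 0.09 without. A match is a run of letters and not a measured binding site. Where the matches lie relative to each start is plotted for the 22 genes, most of them within the last 200 bases before it.

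**Figure D2:**
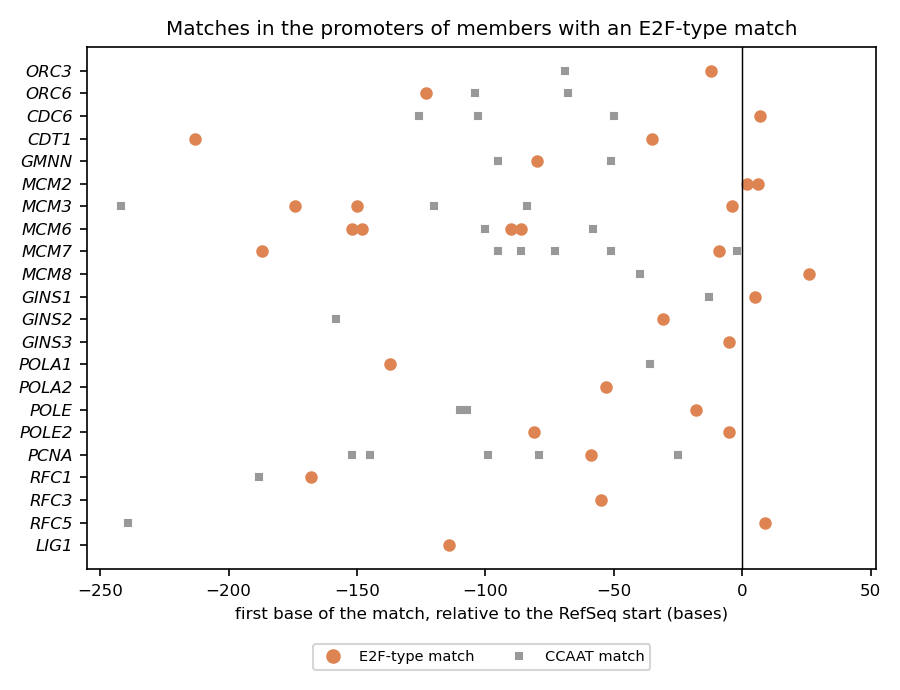
Position of each TTTNNCGC match (orange circles, E2F-type) and CCAAT match (grey squares) on either strand, in bases from the RefSeq start, for the 22 members with an E2F-type match. MCM6 has 2 overlapping pairs of E2F-type matches, and MCM2, CDC6, GINS1, MCM8 and RFC5 have theirs after the start.

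Beside the counts of each role below stand the shares of all genes tested: 53.7% called, 26.4% higher and 27.4% lower. Of the 6 subunits of the origin recognition complex, 3 rose (ORC2, ORC3 and ORC6) and none fell, so 50% were called, near the share of all genes. ORC2 (chr2:200908977-200963660) read 1443, 1439 and 1434 normalized counts in WT and 2092, 2169 and 2047 in R320*. Its R320* libraries all lay above its WT libraries, 1.46-fold by the means (limma log2 fold change 0.55 ± 0.05 SE, adjusted p = 1.03e-07), the largest rise among the 45. ORC3 (chr6:87590135-87677823) read 1780.3, 1628 and 1727 normalized counts in WT and 2395, 2274 and 2227 in R320*. Again no R320* library reached down to WT, and the means differed 1.34-fold (limma log2 fold change 0.43 ± 0.05 SE, adjusted p = 3.52e-06).

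ORC6, the subunit least tightly bound to the others, read 1313, 1500.5 and 1444 normalized counts in WT and 1577, 1608 and 1558 in R320*. Its genotypes did not overlap, but WT replicate 1 was low and the call was near the threshold (limma log2 fold change 0.16 ± 0.06 SE, adjusted p = 0.0326). The limma adjusted p was 0.183 without WT replicate 1, 0.0571 without R320* replicate 1 and 0.0991 without R320* replicate 2. ORC1, ORC4 and ORC5 did not pass the test, with log2 fold changes of -0.07, -0.14 and 0.08 and limma adjusted p = 0.223, 0.0899 and 0.202. ORC1, the subunit whose protein is removed in S phase, was one of the 6 members whose R320* libraries all lay below WT.

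Of the loading factors, CDC6 rose and CDT1 and its inhibitor GMNN did not pass the test. CDC6 (chr17:40287879-40304657), the ATPase that joins ORC to recruit the helicase, read 2553, 2496 and 2513 normalized counts in WT and 2790.4, 2842 and 3009 in R320*. The R320* libraries all lay above WT, 1.14-fold by the means (limma log2 fold change 0.19 ± 0.05 SE, adjusted p = 0.00194). CDT1 read 8833, 8229 and 8384 normalized counts in WT and 8677, 8800.3 and 9526 in R320*. These overlapped, with R320* replicate 3 the highest library and the means 1.06-fold apart (log2 fold change 0.09, limma adjusted p = 0.0987). GMNN ranged from 2440 to 2673 normalized counts in WT and from 2623 to 2742 in R320* (log2 fold change 0.05, limma adjusted p = 0.404).

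Because both genes of a ratio are read in the same library, the balance of loader and inhibitor does not depend on the scaling of libraries. Of 3 ratios compared, none could reach a two-sided exact permutation p below 0.1 with 3 libraries per genotype. The log2 ratio of CDT1 to GMNN was 1.72 ± 0.06 in WT and 1.75 ± 0.09 in R320* (SD, n = 3, exact permutation p = 0.8). CDC6 to GMNN was -0.03 ± 0.06 in WT and 0.11 ± 0.08 in R320*, with no overlap (exact permutation p = 0.1, 0.15 adjusted over the 3). MCM10 to MCM2 was -1.99 ± 0.06 in WT and -2.07 ± 0.01 in R320* (exact permutation p = 0.1, 0.15 adjusted). In RPKM the genotypes overlapped for all 3 ratios, and the differences were -0.16 for CDT1 to GMNN, 0.16 for CDC6 to GMNN and -0.03 for MCM10 to MCM2 (exact permutation p = 0.2, 0.2 and 0.7). Without WT replicate 2 the difference in MCM10 to MCM2 in the counts was -0.05, against -0.08 with all libraries.

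All 6 subunits of the MCM2-7 helicase rose (26.4% of all genes tested did), from 1.14-fold for MCM7 to 1.40-fold for MCM2. Their median log2 fold change was 0.41, and in each of the 6 every R320* library lay above every WT library. MCM2 (chr3:127598411-127622436), the subunit that also handles parental histones, read 5704, 5792 and 5697 normalized counts in WT and 7881, 7797 and 8317 in R320* (limma log2 fold change 0.48 ± 0.04 SE, adjusted p = 1.45e-08). The WT libraries lay close together, and R320* replicate 3 was the highest of all. An antisense gene, AC023593.1, covers 22.7% of the exonic bases of MCM2, and without stated strand use in counting their reads cannot be told apart.

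MCM6 (chr2:135839626-135876443), whose promoter is printed above, read 6187, 6318 and 5999 normalized counts in WT and 8403, 8314 and 8449 in R320* (limma log2 fold change 0.44 ± 0.04 SE, adjusted p = 2.23e-08). Its R320* libraries were tightly grouped and well above WT, 1.36-fold by the means. MCM5 (chr22:35400140-35455031), one side of the gate through which the ring opens, read 3984, 4128 and 4025 normalized counts in WT and 5441, 5444 and 5870.0 in R320* (limma log2 fold change 0.46 ± 0.04 SE, adjusted p = 8.08e-08). Here R320* replicate 3 again stood highest, and in the RPKM table the same rise missed the threshold (limma log2 fold change 0.31, adjusted p = 0.0537). MCM3, which binds the loader, rose 1.24-fold (limma adjusted p = 1.04e-06), and MCM4, a main target of the DDK kinase, rose 1.29-fold (limma adjusted p = 1.54e-07). MCM7, with the highest mean RPKM of the 6 in WT, rose least (limma log2 fold change 0.18 ± 0.03 SE, adjusted p = 0.000111).

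Of the 5 genes whose products turn MCM2-7 into the active helicase, CDC45 and GINS2 rose and GINS1, GINS3 and GINS4 did not pass the test. CDC45 (chr22:19479466-19520612) read 7002, 7079.6 and 7136 normalized counts in WT and 9138, 9089 and 9146 in R320*. Its libraries agreed closely within each genotype, and R320* was 1.29-fold higher (limma log2 fold change 0.37 ± 0.03 SE, adjusted p = 1.01e-07). GINS2 (chr16:85676198-85688954) read 1812, 1764 and 1730.2 normalized counts in WT and 2319.8, 2227 and 2439 in R320*. No library overlapped between genotypes (1.32-fold, limma log2 fold change 0.40 ± 0.05 SE, adjusted p = 5.33e-06).

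GINS3 read 730.1, 590.2 and 761 normalized counts in WT and 738, 868 and 772 in R320*. The genotypes overlapped, WT replicate 2 was the lowest library and the spread was the widest of the 45 (limma log2 fold change 0.20 ± 0.10 SE, adjusted p = 0.0949). Antisense genes cover 10.9% of the exonic bases of GINS3 (AC009118.2) and 21.2% of those of GINS4 (AC009630.2). GINS1 and GINS4, which sit in the same complex as GINS2, had log2 fold changes of -0.04 and 0.06 (limma adjusted p = 0.539 and 0.517). As a share of the WT mean, the R320* libraries lay between 126% and 138% for GINS2, between 94.0% and 99.8% for GINS1 and between 101% and 105% for GINS4. The plot of the 11 helicase subunits by library sets these beside MCM2-7. Of the 11, 8 rose (72.7%, against 26.4% of all genes tested) and none fell (27.4% of all genes).

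**Figure D3:**
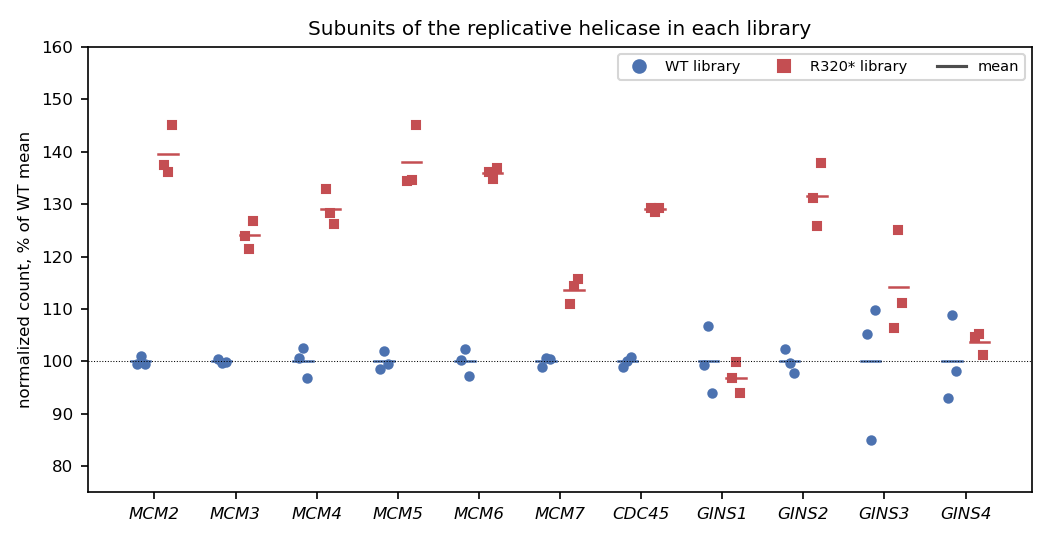
Normalized count of each MCM2-7, CDC45 and GINS gene in every library, as a percentage of the WT mean of that gene (blue circles WT, red squares R320*, bars the means of 3 libraries, axis not starting at 0). The R320* libraries of MCM2, MCM3, MCM4, MCM5, MCM6, MCM7, CDC45 and GINS2 all sit above WT, while those of GINS1, GINS3 and GINS4 overlap it.

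The 3 other MCM genes went different ways. MCM10 (chr10:13161558-13211110), a firing factor that is not part of the ring, rose: it read 1377, 1529 and 1434 normalized counts in WT and 1895, 1839 and 1982 in R320*. All R320* libraries lay above WT, 1.32-fold by the means (limma log2 fold change 0.40 ± 0.06 SE, adjusted p = 1.58e-05). MCM8 (chr20:5950652-5998977), which with MCM9 acts in recombination repair, fell. It read 2369, 2703 and 2627 normalized counts in WT and 2129.6, 2095 and 2067 in R320*. The R320* libraries were close together and below all WT libraries, of which replicate 1 was the lowest, 1.22-fold by the means (limma log2 fold change -0.29 ± 0.05 SE, adjusted p = 0.000219).

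In the RPKM table the fall of MCM8 missed the threshold (limma log2 fold change -0.22, adjusted p = 0.0607). The 50 tested genes nearest to MCM8 on chromosome 20 had a median log2 fold change of -0.21, with 24 of them called lower and 6 higher. MCM9 had a log2 fold change of -0.07 (limma adjusted p = 0.511).

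Among the 9 polymerase and primase genes, POLD1 rose, PRIM1 fell and 7 did not pass the test. POLD1 (chr19:50384323-50418018), the catalytic subunit of polymerase delta, read 6274, 6356 and 6279 normalized counts in WT and 8239, 8724 and 9006 in R320*. Every R320* library was above WT, 1.37-fold by the means (limma log2 fold change 0.46 ± 0.04 SE, adjusted p = 4.28e-08). POLD2, the small subunit that holds polymerase delta together, read 9900.4, 10049 and 10234 normalized counts in WT and 10566, 10328 and 11126 in R320*. The R320* libraries were again all above WT, but by 1.06-fold (log2 fold change 0.08, limma adjusted p = 0.0606); the RPKM table called it higher (limma log2 fold change 0.14, adjusted p = 0.0355).

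PRIM1 (chr12:56731580-56752323), the catalytic subunit of primase, read 2813, 2894 and 2787 normalized counts in WT and 1964, 1996 and 1748 in R320*. All R320* libraries lay below WT, with replicate 3 the lowest, and the means differed 1.49-fold (limma log2 fold change -0.58 ± 0.05 SE, adjusted p = 1.47e-07). AC117378.1, a gene on the same strand, covers 14.9% of the exonic bases of PRIM1. Its partner PRIM2 did not pass the test (log2 fold change -0.08, limma adjusted p = 0.279), although its R320* libraries also lay below WT. POLA1 and POLA2, the polymerase alpha subunits, had log2 fold changes of 0.03 and 0.10 (limma adjusted p = 0.703 and 0.082), with 35.1% of the exonic bases of POLA2 shared with AP000944.2. POLD3, POLE and POLE2 had 0.10, -0.03 and 0.13 (limma adjusted p = 0.347, 0.478 and 0.112).

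Of the clamp and its loader, RFC1 rose, RFC5 fell and PCNA, RFC2, RFC3 and RFC4 did not pass the test. RFC1 (chr4:39287456-39366362), the large subunit that makes the loader specific to PCNA, read 4337, 4305 and 4152 normalized counts in WT and 5234, 4997 and 4937 in R320*. The R320* libraries were all above WT, 1.19-fold by the means (limma log2 fold change 0.25 ± 0.04 SE, adjusted p = 7.12e-05). RFC5 (chr12:118016703-118041448), a small subunit of the same loader and of its alternative forms, read 2474, 2677 and 2802 normalized counts in WT and 1591, 1613 and 1756 in R320*. The R320* libraries were all below WT, 1.60-fold by the means, which was the largest change of the 45 in either direction (limma log2 fold change -0.68 ± 0.06 SE, adjusted p = 3.84e-08).

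RFC2 read 3144, 3254 and 3446 normalized counts in WT and 3455, 3434 and 3708 in R320*. R320* replicate 2 lay below WT replicate 3, so the genotypes overlapped (log2 fold change 0.11, limma adjusted p = 0.0696). RFC3 and RFC4 had log2 fold changes of 0.10 and 0.09 (limma adjusted p = 0.171 and 0.138), and the RPKM table called both higher (limma adjusted p = 0.0386 and 0.0405). PCNA, the clamp and a common proliferation marker, ranged from 3207 to 3301 normalized counts in WT and from 3017 to 3377 in R320* (log2 fold change -0.01, limma adjusted p = 0.823). PCNA has 3 named pseudogenes, RPA2 has 3, and RFC3, RFC5, FEN1 and POLD2 have 1 each, and how reads shared with such copies were counted is not given in the sources used here.

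Both Okazaki fragment genes rose, as did 26.4% of all genes tested. FEN1 (chr11:61792911-61797238), the flap nuclease, read 3742, 3584 and 3881 normalized counts in WT and 4206, 4216 and 4327 in R320* (limma log2 fold change 0.19 ± 0.04 SE, adjusted p = 0.00129). LIG1 (chr19:48115445-48170344), the ligase, read 4018, 3989 and 3979 normalized counts in WT and 4351, 4576 and 4734 in R320* (limma log2 fold change 0.19 ± 0.04 SE, adjusted p = 0.0011). In both the R320* libraries all lay above WT, 1.14-fold by the means in each; LIG1 did not pass in the RPKM table (limma log2 fold change 0.06, adjusted p = 0.447). The 50 tested genes nearest to FEN1 had a median log2 fold change of 0.15, with 22 of them called higher, and FEN1 minus that median was 0.03; for LIG1 the difference was 0.18.

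None of the 3 RPA genes passed the test. RPA2, the subunit phosphorylated at stalled forks, read 3199, 3468 and 3315 normalized counts in WT and 3579, 3321 and 3640.2 in R320*. R320* replicate 2 lay inside the WT range (log2 fold change 0.08, limma adjusted p = 0.179). RPA1, the main DNA-binding subunit, read 4589.9, 4803 and 4630.4 normalized counts in WT and 4405, 4539.6 and 4510.2 in R320*, with all R320* libraries below WT by a small margin (log2 fold change -0.06, limma adjusted p = 0.211). RPA3 had a log2 fold change of -0.08 (limma adjusted p = 0.226).

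Both genes of chromatin assembly factor 1 rose, beside the same 26.4% of all genes. CHAF1A (chr19:4402640-4450830), the subunit that binds PCNA, read 3209, 3326 and 3164 normalized counts in WT and 3627, 3724 and 3956 in R320* (limma log2 fold change 0.22 ± 0.04 SE, adjusted p = 0.000539). CHAF1B (chr21:36385392-36419015), its partner in the complex, read 1969, 1989 and 2025 normalized counts in WT and 2156, 2276 and 2236 in R320* (limma log2 fold change 0.16 ± 0.05 SE, adjusted p = 0.0104). No library overlapped between genotypes in either gene, and the means differed 1.17-fold and 1.11-fold. CHAF1B did not pass in the RPKM table (limma log2 fold change 0.14, adjusted p = 0.194).

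The RPKM table was made from the same libraries with another gene annotation. It is a second quantification of the same sequencing, not a second measurement or experiment. It called 31.9% of 17769 genes tested, 15.1% higher and 16.8% lower, and of the 45 replication genes it called 18 higher and 2 lower. In both tables and the same direction, 17 were called, among them the 2 called lower in RPKM, PRIM1 and RFC5. ORC6, MCM5, MCM8, LIG1 and CHAF1B were called in the counts only, and POLD2, RFC3 and RFC4 in RPKM only. The 2 tables gave opposite signs for ORC4, CDT1, MCM9, GINS4, PCNA and RPA1, none of which was called in either.

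RPKM allows levels to be set side by side between genes. The median RPKM over all libraries was 41.0 for the 45 genes and 8.03 for all genes tested there, and each of the 45 lay between percentiles 53.9 and 98.1. The highest were MCM7 (258 ± 1.32 RPKM in WT and 290.2 ± 3.4 in R320*, SD, n = 3), POLD2 (244 ± 7.52 RPKM in WT and 269.6 ± 9.4 in R320*), MCM4 (217 ± 25.2 RPKM in WT and 298 ± 45.1 in R320*) and PCNA (171 ± 2.06 RPKM in WT and 179 ± 1.74 in R320*). The lowest were GINS3 (9.6 ± 1.18 RPKM in WT and 10.7 ± 0.912 in R320*), POLA1 (9.62 ± 0.181 RPKM in WT and 10.1 ± 0.334 in R320*) and MCM9 (10.1 ± 0.764 RPKM in WT and 10.5 ± 0.532 in R320*). The 3 lowest did not differ from each other beyond their spread.

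**Figure D4:**
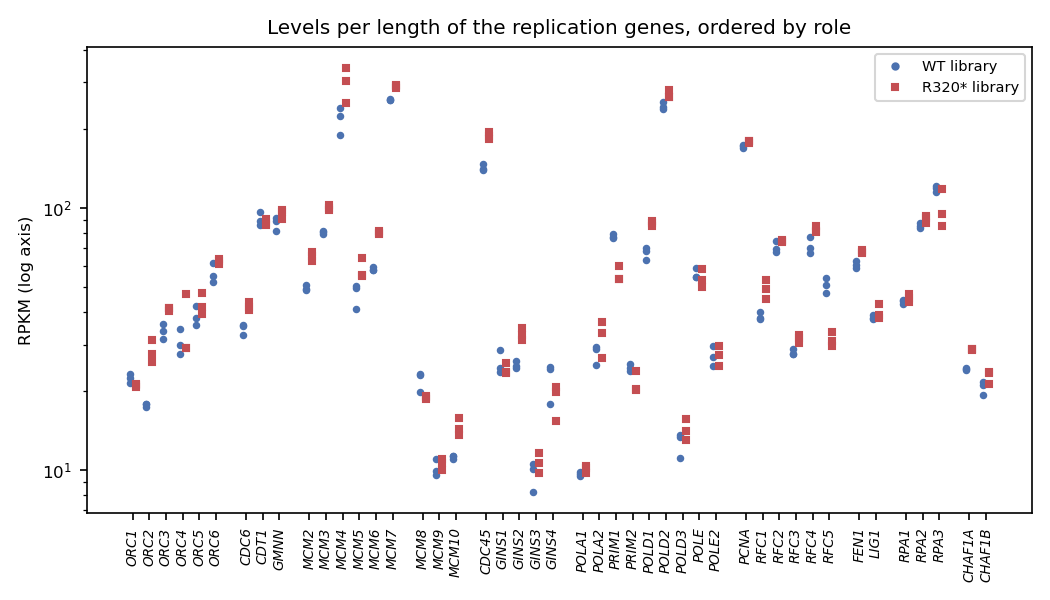
RPKM (log axis) of the 45 replication genes in each library, ordered by role (blue circles WT, red squares R320*). MCM7, POLD2 and MCM4 lie highest and GINS3, POLA1 and MCM9 lowest, and most genes differ far more from each other than between genotypes.

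Within MCM2-7, MCM3 came next in RPKM after the leading pair in every library, then MCM6. MCM5 was the lowest in 5 of the 6 libraries and MCM2 in WT replicate 1. MCM7 read 258, 260.0 and 258 RPKM in WT and 293, 291 and 287 in R320*, and MCM4 read 239, 223 and 189 RPKM in WT and 339.9, 304 and 250.3 in R320*. MCM7 led in the 3 WT libraries and in R320* replicate 3, and MCM4 in R320* replicates 1 and 2, so the order at the top was not the same in every library. Libraries of the 2 genes did not overlap in WT and did in R320*. The highest of the 6 stood between 5.19 and 6.27 times above the lowest. Their summed RPKM was 735, 723 and 674 in WT and 947, 889.6 and 839 in R320*, with no overlap.

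Ratios between partners within a complex, picked after their values were seen and given without a test, show where subunits parted. RFC5 to RFC4 in RPKM was 0.677, 0.755 and 0.694 in WT and 0.367, 0.366 and 0.415 in R320*. PRIM1 to PRIM2 was 3.13, 3.04 and 3.33 in WT and 2.65, 2.93 and 2.25 in R320*. GINS2 to GINS1 went the other way, from 1.06, 0.847 and 1.06 in WT to 1.39, 1.23 and 1.48 in R320*. None of these overlapped between genotypes, which carries no weight because they were picked after their values were seen. Of all single genes tested in the counts, 59.8% did not overlap.

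Neighbouring genes on some chromosomes shifted together between these genotypes, so each of the 45 was set beside the 50 tested genes nearest to it. PRIM1 fell with its surroundings: its 50 neighbours (chr12:56116633-57617245) had a median log2 fold change of -0.71 with 42 of 50 called lower, and PRIM1 minus that median was 0.13. RFC5 was lower than the median of its own lowered stretch (chr12:112160195-120723640, median -0.43, 38 of 50 called lower). POLE, on the same chromosome, was not called although 37 of its 50 neighbours fell (median -0.46), and GMNN on chromosome 6 was not called although 31 of 50 fell (median -0.45). Among the others called, subtracting the neighbours' median took MCM8 from -0.29 to -0.08, CHAF1A from 0.22 to 0.11 and MCM7 from 0.18 to 0.28, for example. RFC5 was -0.25 after it. For the MCM2-7 genes the median of the neighbours' medians was -0.03, and all 6 lay above their neighbours. Of the 45, 35 lay above the median of their neighbours, and 33 had a log2 fold change above 0, against 50.6% of all genes tested. The share of all genes that lie above their neighbours was not computed. Whether copy number differs between the genotypes was not measured here.

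**Figure D5:**
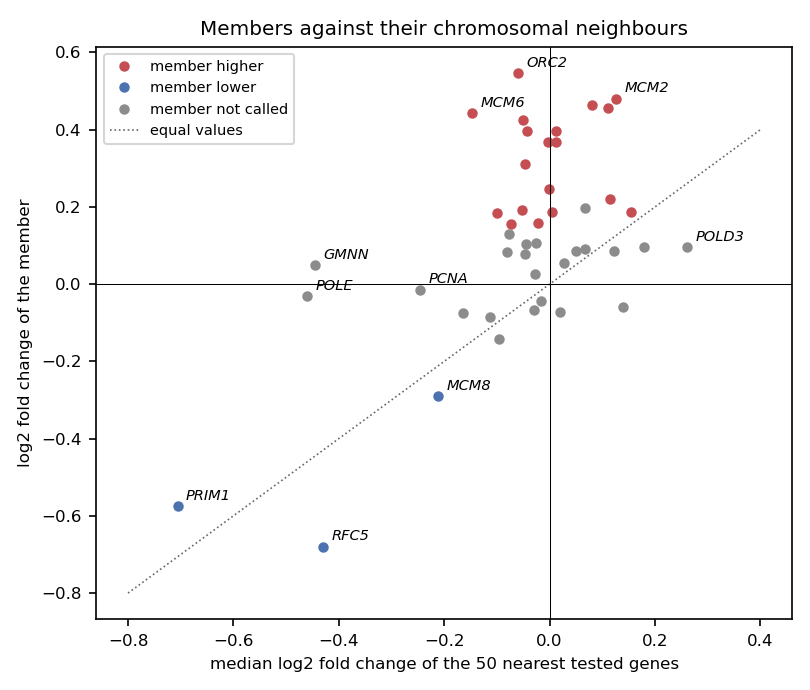
Log2 fold change of each of the 45 genes (vertical axis) against the median log2 fold change of the 50 tested genes nearest on its chromosome (horizontal axis); red, called higher, blue, called lower, grey, not called, and the dotted line marks equal values. PRIM1 lies near the line at a neighbour median of -0.71, RFC5 lies under it, and POLE and GMNN lie above it at -0.46 and -0.45.

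Genes that work beside these 45 were counted from lists of other replication and cell cycle genes. Over all genes tested in the counts, 53.7% were called, 26.4% higher and 27.4% lower, which is the share to set beside each list. Of 35 other replication and fork genes, 17 rose and 5 fell (62.9% called, median log2 fold change 0.14). RECQL4, a helicase needed for origin firing, read 4596 ± 173 normalized counts in WT and 6809 ± 210.1 in R320* (SD, n = 3; limma log2 fold change 0.57 ± 0.04 SE, adjusted p = 5.71e-09). CHTF18, of the alternative clamp loader, read 3119 ± 71.1 normalized counts in WT and 4538 ± 148 in R320* (limma log2 fold change 0.54 ± 0.04 SE, adjusted p = 1.46e-08). SUPT16H, of the histone chaperone FACT, read 6120.4 ± 39.1 normalized counts in WT and 8125 ± 241 in R320* (limma log2 fold change 0.41 ± 0.04 SE, adjusted p = 7.29e-08). TIMELESS, of the fork protection complex, fell from 5733 ± 133 to 3685 ± 136 (limma log2 fold change -0.64 ± 0.04 SE, adjusted p = 1.43e-09), in the same lowered stretch of chromosome 12 as PRIM1. The neighbours' median was -0.71 for TIMELESS, 0.40 for RECQL4, 0.15 for CHTF18 and -0.16 for SUPT16H.

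Of 18 E2F and RB family genes, 7 rose and 4 fell in the counts (61.1% called, against 53.7% of all genes, median 0.08). The RPKM table called 5 of the 18, and 31.9% of all genes tested there. E2F1, an activator of S-phase genes, read 1290.4 ± 79.7 normalized counts in WT and 1961 ± 132 in R320* (limma log2 fold change 0.60 ± 0.06 SE, adjusted p = 4.87e-07), and MYBL2, of the MuvB complexes, read 6947 ± 147 normalized counts in WT and 9030.0 ± 339.6 in R320* (limma log2 fold change 0.38 ± 0.04 SE, adjusted p = 3.29e-07). RB1, which restrains E2F activators, read 1599.7 ± 103 normalized counts in WT and 1169.6 ± 80.2 in R320* (limma log2 fold change -0.45 ± 0.07 SE, adjusted p = 2.11e-05). E2F7, a repressor of the family, read 1275 ± 79.9 normalized counts in WT and 499.5 ± 9.91 in R320* (limma log2 fold change -1.35 ± 0.07 SE, adjusted p = 1.37e-10). The neighbours' median was -0.62 for E2F7 on chromosome 12, 0.02 for E2F1, 0.12 for MYBL2 and 0.01 for RB1.

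Of 11 tested genes of the S-phase cyclins, CDK2 and their regulators, 3 rose and 5 fell (72.7% called, against 53.7% of all genes, median -0.07). CDKN1A, the p21 inhibitor of CDK2, read 415 ± 38.0 normalized counts in WT and 57.4 ± 15.5 in R320* (limma log2 fold change -2.87 ± 0.20 SE, adjusted p = 3.05e-09), and SKP2, which targets CDK inhibitors for degradation, read 2523 ± 155 normalized counts in WT and 8505 ± 136 in R320* (limma log2 fold change 1.75 ± 0.05 SE, adjusted p = 2.13e-14). CDK2 itself read 4537 ± 94.3 normalized counts in WT and 2912 ± 89.2 in R320* (limma log2 fold change -0.64 ± 0.04 SE, adjusted p = 1.73e-09), near PRIM1 on chromosome 12. WEE1, which inhibits CDKs, read 3439 ± 47.2 normalized counts in WT and 2901 ± 46.4 in R320* (limma log2 fold change -0.25 ± 0.04 SE, adjusted p = 9.32e-05). The neighbours' median was -0.70 for CDK2, -0.07 for CDKN1A, 0.06 for SKP2 and -0.11 for WEE1. No read was seen for CCNA1 in any library.

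Of 20 genes of G2 and mitosis, 2 rose and 11 fell in the counts (65% called, against 53.7% of all genes, median -0.13). The count called was 8 without the intensity trend, where 46.8% of all genes were called. It was 7 of the 19 tested in the RPKM table, where 31.9% of all genes were called. TOP2A, the topoisomerase of chromosome condensation, read 17807 ± 433 normalized counts in WT and 12966 ± 518 in R320* (limma log2 fold change -0.46 ± 0.04 SE, adjusted p = 2.07e-08). KIF20A, a kinesin of cytokinesis, read 2918 ± 125 normalized counts in WT and 1906 ± 17.5 in R320* (limma log2 fold change -0.61 ± 0.05 SE, adjusted p = 1.43e-08), and CDC20, the activator of the anaphase-promoting complex, read 5872 ± 247 normalized counts in WT and 4778 ± 40.5 in R320* (limma log2 fold change -0.30 ± 0.04 SE, adjusted p = 9.55e-06). BUB1, a spindle checkpoint kinase, rose from 8579 ± 156 to 13599 ± 93.9 (limma log2 fold change 0.66 ± 0.03 SE, adjusted p = 5.43e-11). The neighbours' median was -0.36 for KIF20A, -0.01 for TOP2A, 0.21 for CDC20 and -0.0027 for BUB1. The difference between the lists themselves was not tested.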

How the data were processed

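RNA was sequenced from 6 K562 libraries, 3 per genotype. The submitters' processing notes name the build hg38 and the tools HISAT2, Salmon, featureCounts and DESeq2. Versions, strand use in counting and which tool made which table are not stated there. The deposited signal values are read counts that the authors divided by 1 factor per library: 100% of values were whole multiples of the library's step within 1e-06, with 1 read worth 0.953 to 1.05 normalized counts, so reads were recovered. The deposited RPKM values come from the authors' second table, and their unit is as its title names it. The labels do not say that replicates are separate cultures, so the p-values speak only to the spread between these libraries, which may be technical. No block was used, because the labels do not say that a replicate number marks a shared culture, day or batch. Same-numbered libraries also did not deviate together.

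Genes needed 10 or more normalized counts in 3 or more libraries, which 14299 met. Their log2(normalized count + 1) was fitted with limma 3.58.1 (R 4.3.3, empirical Bayes with an intensity trend), adjusted by Benjamini-Hochberg and called below 0.05. For RPKM the minimum was 0.5 in 3 or more libraries (17769 genes), on the log2(RPKM + 0.1) scale and otherwise alike. Fold changes on these scales understate the change of low genes. Folds between means come from normalized counts. Ratios used an exact permutation test over libraries (SciPy 1.17.1). Alternatives were other pseudocounts, filters and scalings, no trend, the replicate block, each library left out, and edgeR 4.0.16 and DESeq2 1.42.0 on the recovered reads. Depth was 29058471 to 31306435 reads, and edgeR's common biological coefficient of variation was 6.87%. The limma fits were tested on simulated data.

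RefSeq (GRCh38.p14) gave symbols and positions for 27745 of 28395 identifiers, and promoters. Exon overlaps and pseudogene names are from GENCODE (GRCh38); 20 of the 45 genes share exonic bases with another gene, 5 of them over 10%. The 45 genes and the other lists were chosen with earlier results of these data known. Values in every library are given for the members of each role with the smallest adjusted p (up to 3 in roles of 5 or more members, otherwise up to 2), for members called lower, and for members of opposite sign in the 2 tables with a call in either. From each other list at most 4 called genes with the smallest adjusted p are named.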

Additional observations from a re-analysis of the deposited data

How the results depend on the processing

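Of the 22 members called, 21 stayed called in all 18 fits of the count table, ORC6 being the exception (limma adjusted p 0.0893 without the intensity trend, beside the values given without single libraries), and 17 stayed called in the RPKM table too. The number of members called lay between 21 and 27 over the other fits of the count table, and between 15 and 23 over the alternatives of the RPKM table. Over the same count fits the share of all genes called lay between 38.9% (no filter) and 59.7% (the filter of 50). The 27 came with upper quartile scaling, where genes called higher rose from 3771 to 4194 over all genes. With single libraries left out the number of members called lay between 21 and 25 in the counts (18 to 22 higher, 3 to 4 lower) and between 15 and 19 in RPKM. Of all genes, 48.5% to 51.5% were called in those count fits. The replicate number as a block gave 24 in the counts and 18 in RPKM, and the correlations of same-numbered libraries were 0.0316, -0.00312 and -0.00325. Upper quartile and quantile scaling moved the median of all genes by 0.04 each on the log2 scale.

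Signs turned only for members that were not called in the counts, and for PRIM1. In the RPKM table the log2 fold change was 0.15 for ORC4, -0.0387 for CDT1, 0.0564 for MCM9, -0.25 for GINS4, 0.0625 for PCNA and 0.0437 for RPA1. Upper quartile scaling gave 0.00099 for POLE and 0.017 for PCNA. With single libraries left out, PCNA lay between -0.045 and 0.0363 (above 0 only without R320* replicate 3), and GINS1 between -0.0874 and 0.0041 (above 0 only without WT replicate 2). With the neighbours' median subtracted PRIM1 was 0.13. The same step turned CDT1 (to -0.04), PRIM2 (0.09), POLD3 (-0.17), POLE (0.43), PCNA (0.23), RFC3 (-0.08) and RPA3 (0.03). The log2 ratio of CDT1 to GMNN differed by -0.16 in RPKM, and with single libraries left out by between -0.0188 (without R320* replicate 3) and 0.0702. The E2F and RB family had 5 called in the RPKM table against 11 in the counts. The G2 and mitosis genes had 8 without the intensity trend and 7 in the RPKM table against 13. The share of all genes called was also lower in these fits, at 46.8% without the trend and 31.9% in RPKM against 53.7%. The cause of the lower counts was not tested. Depth limits little here, since the lowest member value was 590.2 normalized counts; with 3 libraries per genotype the exact permutation test cannot go below p = 0.1.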
